A study of Mus musculus with 8 samples.

Results

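The 8 genes described here belong to the tumour necrosis factor (TNF) superfamily: the ligands Tnfsf10 and Tnfsf13b and the receptors Tnfrsf1a, Tnfrsf1b, Tnfrsf11b, Tnfrsf14, Tnfrsf21 and Tnfrsf25. They were taken as all probe sets that the platform annotation gives to a single one of these symbols, which yielded 15 of the 45101 probe sets and 8 of the 18194 genes with a single-symbol probe set. The genes were chosen by their mutant against control values on these same arrays, so their differences are a description and carry no test. The arrays hold RNA of microvessel fragments, with pericytes attached, that beads against PECAM, an endothelial surface protein, had captured from brains at postnatal day 1. The 4 mutant brains carried the D849V knock-in allele of PDGFRb, a constitutively active form of the receptor that pericytes bear, and the 4 control brains were wild type. All mice had a 129S/J mixed background, and each array stands for 1 brain. The labels do not say whether the mutants were heterozygous, and they give no litter.

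Ligands of the TNF superfamily are mostly trimeric membrane proteins that can be shed, and their receptors recruit adaptor proteins to the inner face of the membrane. Receptors with a death domain can assemble caspase-activating or necroptotic complexes, while others, and the same ones under other conditions, activate NF-kB through TRAF adaptors, ubiquitin ligases and the IKK kinases. In the brain, members of the superfamily are known from microglia, endothelium, astrocytes and neurons, where they take part in inflammation, vessel activation and developmental cell death.

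The start regions of these genes are shown first because sequence motifs of interferon-responsive promoters can be looked up there. The RefSeq table of build GRCm38.p6 held 9 windows, each from 250 bases before to 50 bases after a gene start, for 7 of the 8 genes. Searched on both strands, the interferon regulatory factor (IRF) element AANNGAAA was present in windows of Tnfsf10, Tnfsf13b, Tnfrsf1b, Tnfrsf14 and Tnfrsf21, and in 23.9% of all 32851 windows of that length. Genes are named here by any of their windows, whereas the percentages count single windows. The windows of Tnfsf13b overlap and share a match. The STAT motif TTCNNNGAA was found for Tnfrsf1a, Tnfrsf1b and the second start of Tnfrsf25 (8.3% of all windows). The 4 windows printed are those with at least 2 matches to the IRF element and the first one of Tnfrsf25, which has none. Tnfrsf25 was picked as the gene with the largest fall. The Tnfrsf1a window has no match either, and the groups overlapped for Tnfrsf1a as for Tnfrsf1b and Tnfrsf21, which have matches. Whether matches go with differences was not tested. Capitals mark the matches on either strand.
Tnfsf10, chr3:27316827-27317126, strand +: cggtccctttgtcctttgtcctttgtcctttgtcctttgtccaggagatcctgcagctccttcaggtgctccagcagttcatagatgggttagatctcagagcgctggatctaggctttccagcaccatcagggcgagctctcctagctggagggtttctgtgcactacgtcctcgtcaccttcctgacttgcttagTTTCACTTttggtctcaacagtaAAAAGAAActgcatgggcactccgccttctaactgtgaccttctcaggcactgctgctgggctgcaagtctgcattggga
Tnfsf13b, chr8:10006383-10006682, strand +: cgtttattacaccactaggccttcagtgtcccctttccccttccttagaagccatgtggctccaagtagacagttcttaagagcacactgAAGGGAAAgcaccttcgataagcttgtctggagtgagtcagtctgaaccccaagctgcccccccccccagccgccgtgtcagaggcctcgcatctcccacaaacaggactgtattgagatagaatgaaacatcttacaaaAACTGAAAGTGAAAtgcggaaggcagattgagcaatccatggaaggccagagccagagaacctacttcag
Tnfrsf14, chr4:154928028-154928327, strand -: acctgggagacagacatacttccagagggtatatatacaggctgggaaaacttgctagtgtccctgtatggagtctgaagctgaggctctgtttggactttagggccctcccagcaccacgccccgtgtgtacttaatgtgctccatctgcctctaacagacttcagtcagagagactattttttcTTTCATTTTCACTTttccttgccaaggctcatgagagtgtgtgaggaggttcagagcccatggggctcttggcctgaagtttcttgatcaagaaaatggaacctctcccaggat
Tnfrsf25, chr4:152115684-152115983, strand +: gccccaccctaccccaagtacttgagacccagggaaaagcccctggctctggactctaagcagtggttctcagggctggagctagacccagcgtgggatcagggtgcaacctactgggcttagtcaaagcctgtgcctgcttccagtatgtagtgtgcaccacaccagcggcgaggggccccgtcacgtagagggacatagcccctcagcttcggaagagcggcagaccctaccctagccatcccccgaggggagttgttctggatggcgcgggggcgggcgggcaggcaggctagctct
In the Tnfsf10 window the matches begin 53 and 30 bases before the gene start. The second window of Tnfsf13b holds 3, which begin 160, 20 and 14 bases before the start, and the Tnfrsf14 window holds 2, at 64 and 58 bases, yet neither of these genes exceeded the filter on any array, as described next. A match of letters is not evidence of binding, and the arrays did not measure it.

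Tnfsf10 was higher and Tnfrsf25 lower in the mutant microvessels, and the other 6 genes either overlapped between the groups or were not detected. Values are log2 GCRMA expression values, whose lowest value on these arrays is 2.18; genes above 4 on at least 4 arrays were tested, and 6 of the 8 met that filter. Over the 11446 genes tested in the whole table, 4.58% passed limma's test at a Benjamini-Hochberg adjusted p under 0.05, and 2 of the 6 genes above the filter, Tnfsf10 and Tnfrsf25, were among them. The groups did not overlap in 14.5% of all tested genes (mutants above in 4.07%, below in 10.4%), and in the same 2 of 6. Since these genes were chosen from this comparison, nothing is read from either count. Across all tested genes, the mutant minus control difference was -0.11 (median, log2 scale), and the differences given here stand against that median.

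**Figure D1:**
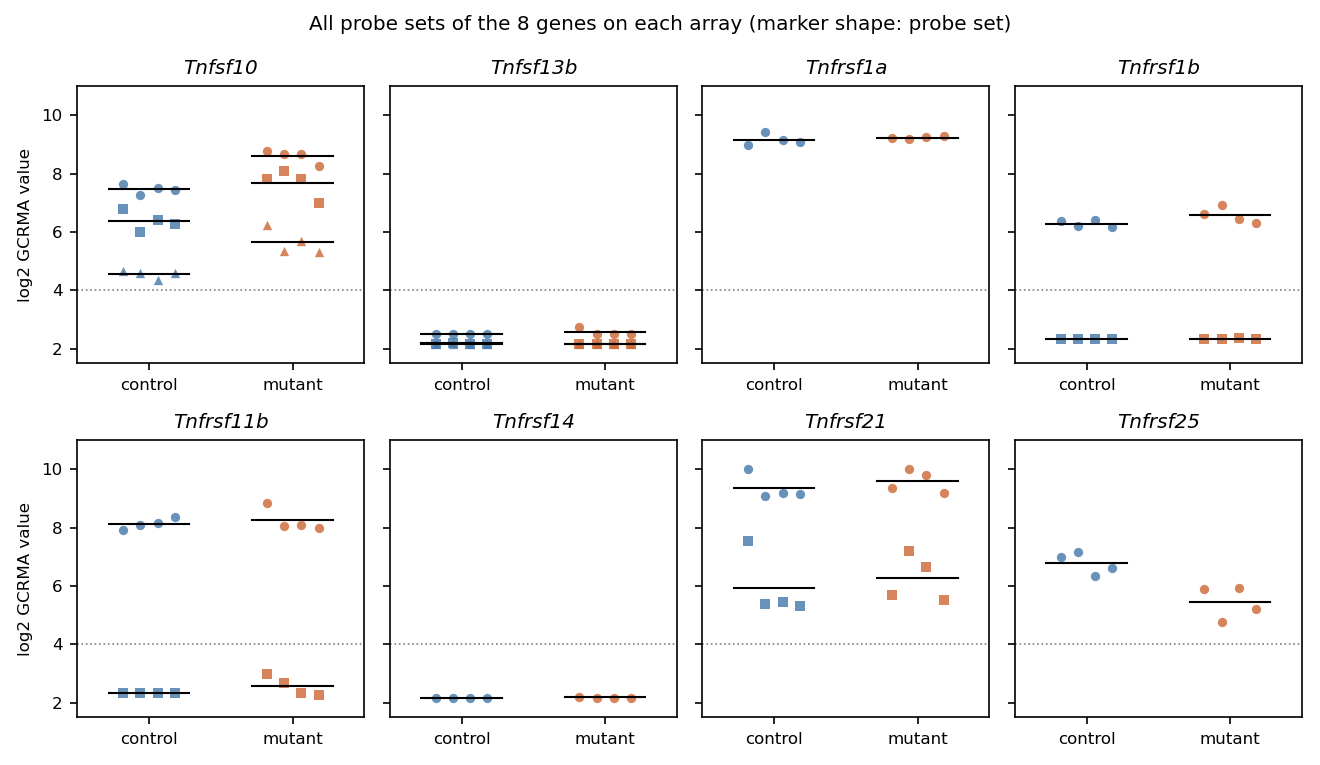
Log2 GCRMA values (vertical axis) of all 15 probe sets of the 8 genes on the 4 control (blue) and 4 mutant (orange) arrays; each marker shape is 1 probe set, black lines are group means and the dotted line is the filter at 4. Tnfsf10 lies higher in the mutants on all 3 of its probe sets, Tnfrsf25 lies lower on its single one, and Tnfsf13b and Tnfrsf14 stay under the filter everywhere.

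Tnfsf10 encodes TRAIL, a ligand that can trigger apoptosis through death receptors and whose transcript is known to be induced by interferons. Its brightest probe set, 1439680_at, read 8.78, 8.68, 8.66 and 8.27 on mutant arrays 1 to 4 and 7.66, 7.28, 7.50 and 7.46 on control arrays 1 to 4. Every mutant value lay above every control value. The means were 8.60 ± 0.23 and 7.47 ± 0.15 (SD, n = 4 each), a difference of 1.12 (SE 0.134), or 2.18-fold higher in the mutants.

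The other probe sets of Tnfsf10 gave differences of like size. On 1459913_at the mutants read 7.82, 8.09, 7.81 and 6.98 and the controls 6.79, 6.00, 6.41 and 6.28, a difference of 1.31 (SE 0.257). On 1420412_at the mutants read 6.26, 5.35, 5.69 and 5.32 and the controls 4.65, 4.59, 4.35 and 4.60, a difference of 1.10 (SE 0.207). The groups were apart on all 3 probe sets, all 3 of which were among the 2.98% of single probe sets that passed (1.99% as higher), and mutant array 4 was the lowest of the mutants on each. The probe sets read the same gene on the same arrays and are not independent. As the gene was chosen from this comparison, nothing is read from these calls.

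**Figure D2:**
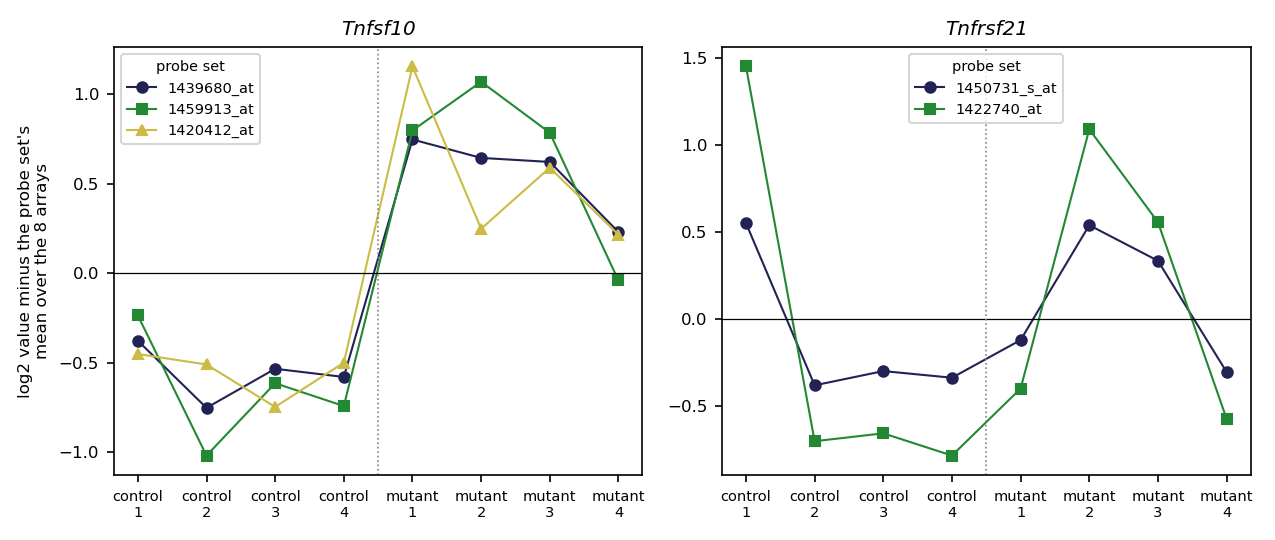
Log2 value of each probe set minus its own mean over the 8 arrays (vertical axis) for Tnfsf10 (left) and Tnfrsf21 (right) on each array; lines join the values of 1 probe set and have no meaning between arrays. The 3 Tnfsf10 probe sets separate the groups, whereas both Tnfrsf21 probe sets are high on control array 1 and mutant arrays 2 and 3.

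Tnfsf13b encodes BAFF, a survival factor of B cells. None of its 3 probe sets exceeded 2.75 on any array, so all lay under the filter. On 1445251_at mutant array 1 read 2.75 while the other 7 arrays all read 2.51. On 1460255_at and 1458047_at the 8 arrays ran from 2.18 to 2.19. No fold is given, since no array of either group reached the filter.

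Tnfrsf1a encodes TNF receptor 1, the widely expressed death-domain receptor of TNF. It read 9.21, 9.18, 9.27 and 9.30 in the mutants and 8.97, 9.42, 9.16 and 9.08 in the controls. The groups overlapped, with the highest and the lowest value both among the controls. The difference was 0.08 (SE 0.108). The SD was 0.056 in the mutants and 0.192 in the controls. Over all tested genes, the median of the SD pooled over both groups was 0.208.

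Tnfrsf1b encodes TNF receptor 2, which lacks a death domain and signals through TRAF proteins, and which microglia are known to carry. On 1418099_at it read 6.62, 6.93, 6.46 and 6.31 in the mutants and 6.37, 6.21, 6.42 and 6.16 in the controls. Mutant arrays 1 to 3 exceeded all controls and mutant array 4 did not, with a difference of 0.29 (SE 0.141). Its second probe set, 1448951_at, stayed between 2.32 and 2.38 on all arrays and measured nothing above the floor.

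Tnfrsf11b encodes osteoprotegerin, a secreted decoy receptor that binds RANKL and TRAIL. On 1449033_at it read 8.85, 8.07, 8.10 and 7.97 in the mutants and 7.90, 8.07, 8.17 and 8.37 in the controls. Apart from mutant array 1, the mutants lay within the range of the controls. The difference of 0.12 (SE 0.201) became -0.08 without mutant array 1. The second probe set, 1418309_at, ran from 2.27 to 2.99 and had its highest value, 2.99, on mutant array 1 too.

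Tnfrsf14 encodes HVEM, which binds the ligand LIGHT (Tnfsf14) and the inhibitory lymphocyte receptors BTLA and CD160. Its probe set lay at 2.18 on all 8 arrays. Its partner genes Tnfsf14, Btla and Cd160 were under the filter as well. Nothing can be said of a difference in HVEM transcript from values at the floor.

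Tnfrsf21 encodes death receptor 6, a death-domain receptor known from axon pruning and from vessel growth in the developing brain. On 1450731_s_at it read 9.35, 10.01, 9.81 and 9.17 in the mutants and 10.02, 9.09, 9.17 and 9.13 in the controls. On 1422740_at it read 5.70, 7.19, 6.65 and 5.52 in the mutants and 7.55, 5.39, 5.44 and 5.31 in the controls. Both probe sets were high on the same 3 arrays, control 1 and mutants 2 and 3, so the spread within each group exceeded the difference between them.

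The group differences of Tnfrsf21 were 0.23 (SE 0.260) and 0.34 (SE 0.577). Without control array 1 the first became 0.45, and without mutant array 2 it became 0.09. The arrays that were high did not share a reading of Y-linked genes: the mean of 3 such genes was 8.07 on mutant array 3, and 2.22 and 2.18 on mutant array 2 and control array 1. Of the other arrays, mutants 1 and 4 read 8.07 and 8.02, controls 2 and 3 read 8.22 and 8.06, and control 4 read 2.18. The groups thus differed in how many arrays had a high reading of these Y-linked genes. The 3 tested genes most like Tnfrsf21 over the 8 arrays, looked up after its values had been seen, were Hspd1 (Pearson r = 0.989), a mitochondrial chaperonin, Ipo5 (r = 0.977), a nuclear import receptor, and Abcf1 (r = 0.973), over 8 arrays that share their preparation.

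Tnfrsf25 encodes death receptor 3, the receptor of the ligand TL1A (Tnfsf15), known best from T cells. Its single probe set, 1422231_a_at, read 5.91, 4.76, 5.94 and 5.23 in the mutants and 6.99, 7.17, 6.36 and 6.61 in the controls. Every mutant value lay below every control value, with a gap between the highest mutant, 5.94, and the lowest control, 6.36. The means were 5.46 ± 0.57 and 6.78 ± 0.37 (SD, n = 4 each), a difference of -1.33 (SE 0.295), or 2.51-fold lower in the mutants. In the fit over single probe sets, where 0.995% passed as lower, it was not among them. It has no second probe set to compare with, and Tnfsf15 was not analysed here. With any 1 array left out the difference ran from -1.49 to -1.09, and Tnfrsf25 was then no longer among the genes that passed in any of the 8 cases.

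By the rule set for likeness, the tested genes that followed Tnfsf10 most closely over the 8 arrays were Ms4a7 (Pearson r = 0.997), Ms4a6b (r = 0.994) and Ms4a6c (r = 0.994), membrane proteins of the MS4A family known from macrophages. Ms4a7 read 7.38, 7.11, 7.27 and 6.63 in the mutants and 5.43, 4.72, 5.13 and 4.93 in the controls. Its lowest arrays, mutant 4 and control 2, were those of Tnfsf10 on its brightest probe set, a likeness that comes with its choice by correlation. The genes most like Tnfrsf25 were Ap1s2 (r = 0.985), a subunit of an adaptor complex of vesicle transport, Tln2 (r = 0.983), a talin that links integrins to actin, and Tlcd3a (r = 0.979). These correlations include the difference between the groups, are the highest of 11446 genes, and are given without a test.

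Most superfamily genes read under the filter on these arrays. Of the 46 listed ligand and receptor genes, 41 had a single-symbol probe set and 15 of those were above the filter. A value under the filter does not show that a transcript was absent, since Tnfrsf1b and Tnfrsf11b each had a probe set under it and another above it. Of the 15, only Tnfsf10 passed as higher and only Tnfrsf25 as lower, against a background of 2.66% higher and 1.92% lower over all tested genes; both belong to the 8 chosen genes. The median difference of the 15 genes was 0.12 on the log2 scale, against -0.11 over all tested genes, and 4 of the 15 differences were negative, against 69.1% of all tested genes. Part of the 15 was chosen from this comparison, so nothing is read from these figures. For the 9 genes outside the 8 chosen ones, the median was 0.10 and 3 differences were negative. With any 1 array left out, mutants 1 to 4 and controls 1 to 4 alike, the count was 1, Tnfsf10 alone.

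None of the other 9 superfamily genes above the filter passed limma's test, and 0 of them had an unadjusted p under 0.05. Tnf itself, the ligand of Tnfrsf1a and Tnfrsf1b, read 4.99, 5.20, 5.71 and 4.68 in the mutants and 5.27, 4.31, 4.58 and 4.85 in the controls, which overlapped. Its difference was 0.39 (95% interval -0.21 to 0.99, limma adjusted p = 0.428), an interval that reaches from a lower to a higher level. Ltb, a chain of lymphotoxin, differed by 0.30 (limma adjusted p = 0.379), and 4 of its 8 arrays read the same 5.67.

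Among receptors, Tnfrsf19 (TROY), known from neural progenitors, read 11.35 ± 0.13 in the mutants and 11.53 ± 0.12 in the controls (SD, n = 4 each; limma adjusted p = 0.336). Cd40, a costimulatory receptor that endothelium can carry, read 9.39 ± 0.33 against 9.16 ± 0.24 (SD, n = 4 each; limma adjusted p = 0.52). Fas, the death receptor of Fas ligand, differed by -0.06, Ngfr, the low-affinity neurotrophin receptor, by -0.40 and Eda2r by 0.45. Ltbr and Tnfrsf12a differed by 0.10 and 0.09.

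**Figure D3:**
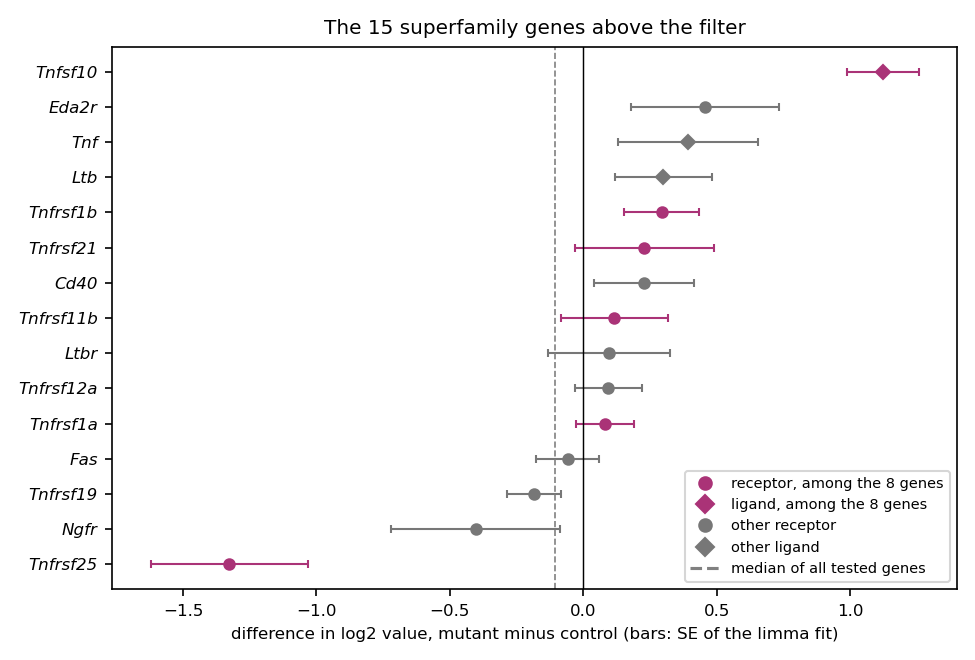
Difference in log2 value, mutant minus control (horizontal axis), of the 15 superfamily genes above the filter, with bars for the SE of the limma fit; purple marks the genes among the 8 chosen ones, grey the other superfamily genes, diamonds ligands and circles receptors. Tnfsf10 at 1.12 and Tnfrsf25 at -1.33 stand at the ends, and the other 13 lie between -0.40 and 0.45; the dashed line is the median of all tested genes, -0.11.

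The remaining 26 superfamily genes with a probe set were under the filter. On 15 of them every array lay within 0.5 of the lowest value, among them Cd40lg, Fasl, Cd70, Tnfsf14 and Tnfrsf10b, the mouse TRAIL death receptor. Tnfrsf10b did not exceed 2.18 on any array, so that the death receptor of the ligand that was higher in the mutants was not measured above the floor. The decoy receptor Tnfrsf11b, which also binds TRAIL, was above the filter, whereas the receptors Tnfrsf22 and Tnfrsf23 were under it on all arrays. Only 3 of the 26, Tnfsf4, Tnfsf11 and Tnfrsf13b, exceeded 4 on any array.

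Of the genes that carry the signal inside the cell, 3 passed the test. Of 35 listed adaptors, kinases, ubiquitin ligases and cell death proteins, 29 were tested, 2 rose and 1 fell, beside 2.66% higher and 1.92% lower over all tested genes, with a median difference of -0.05 against -0.11 over all genes. Mlkl, the pore-forming executioner of necroptosis, rose from a log2 value of 6.13 ± 0.52 to 9.99 ± 0.37 (SD, n = 4 each), by 3.86 (SE 0.279, limma adjusted p = 6.5e-05). Its value was higher in 4 of 4 mutants than in any control. Ripk3, the kinase that activates MLKL, read 6.04 ± 0.37 against 5.67 ± 0.08 (SD, n = 4 each; limma adjusted p = 0.263).

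Rnf31, the catalytic subunit of the linear ubiquitin ligase LUBAC, rose by 0.92 (SE 0.191, limma adjusted p = 0.0326). Its partner Rbck1 differed by 0.28 (limma adjusted p = 0.168) and Sharpin by 0.13 (limma adjusted p = 0.655). Tab1, an activator of the kinase TAK1, fell by 0.72 (limma adjusted p = 0.0337), and Map3k7, which encodes TAK1, read 8.13 ± 0.49 against 8.75 ± 0.09 (SD, n = 4 each; limma adjusted p = 0.167). The calls of Rnf31 and Tab1 were lost in most omissions of 1 array. Rnf31 passed without mutant array 4 (limma adjusted p = 0.00846) and not without any of the other 7 (0.0528 to 0.102), and Tab1 passed without control array 3 (limma adjusted p = 0.0456) and not without any of the other 7 (0.0514 to 0.114). The count of the list ran from 1 to 5 over these omissions, the 5 without mutant array 4.

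Close to the threshold without passing it, and named after their values were seen, were Bid, a proapoptotic protein cut by caspase-8 (1.03, SE 0.245, limma adjusted p = 0.0563), and Birc3, an inhibitor of apoptosis that binds TRAF2 (0.44, SE 0.101, limma adjusted p = 0.0508). Casp8 differed by 0.57 (limma adjusted p = 0.186). Tnfaip3, the A20 feedback inhibitor that TNF signalling induces, differed by -0.19 (limma adjusted p = 0.449). Tradd and Fadd, the adaptors of the death domain, differed by -0.07 and 0.14.

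Of 19 NF-kB subunits, inhibitors and genes that TNF is known to induce, 14 were tested, 2 rose and none fell, beside the same 2.66% and 1.92% over all genes, with a median difference of 0.20. Ccl2, a monocyte-attracting chemokine, rose by 2.19 (SE 0.307, limma adjusted p = 0.00472). Nfkbie, an inhibitor of NF-kB, rose by 1.13 (SE 0.137, limma adjusted p = 0.00197). Both passed with each of the 8 arrays left out in turn. The adhesion molecule Vcam1 read 10.77 ± 0.14 against 10.31 ± 0.14 (SD, n = 4 each; limma adjusted p = 0.0539), Icam1 differed by 0.29 and the feedback inhibitor Nfkbia by -0.19. Sele and Selp, the selectins of activated endothelium, and Il6 were under the filter.

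None of the 5 genes of ligand and receptor shedding passed the limma test. The proteases and their regulators Adam10, Adam17 and Rhbdf1 differed by -0.25, -0.26 and -0.34, Rhbdf2 by 0.04. Timp3, which inhibits ADAM17, differed by 0.30 (limma adjusted p = 0.36). The lowest adjusted p of the 5 was 0.147, that of Adam10, and 3 of the 5 had an unadjusted limma p under 0.05, as did 20.6% of all tested genes.

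**Figure D4:**
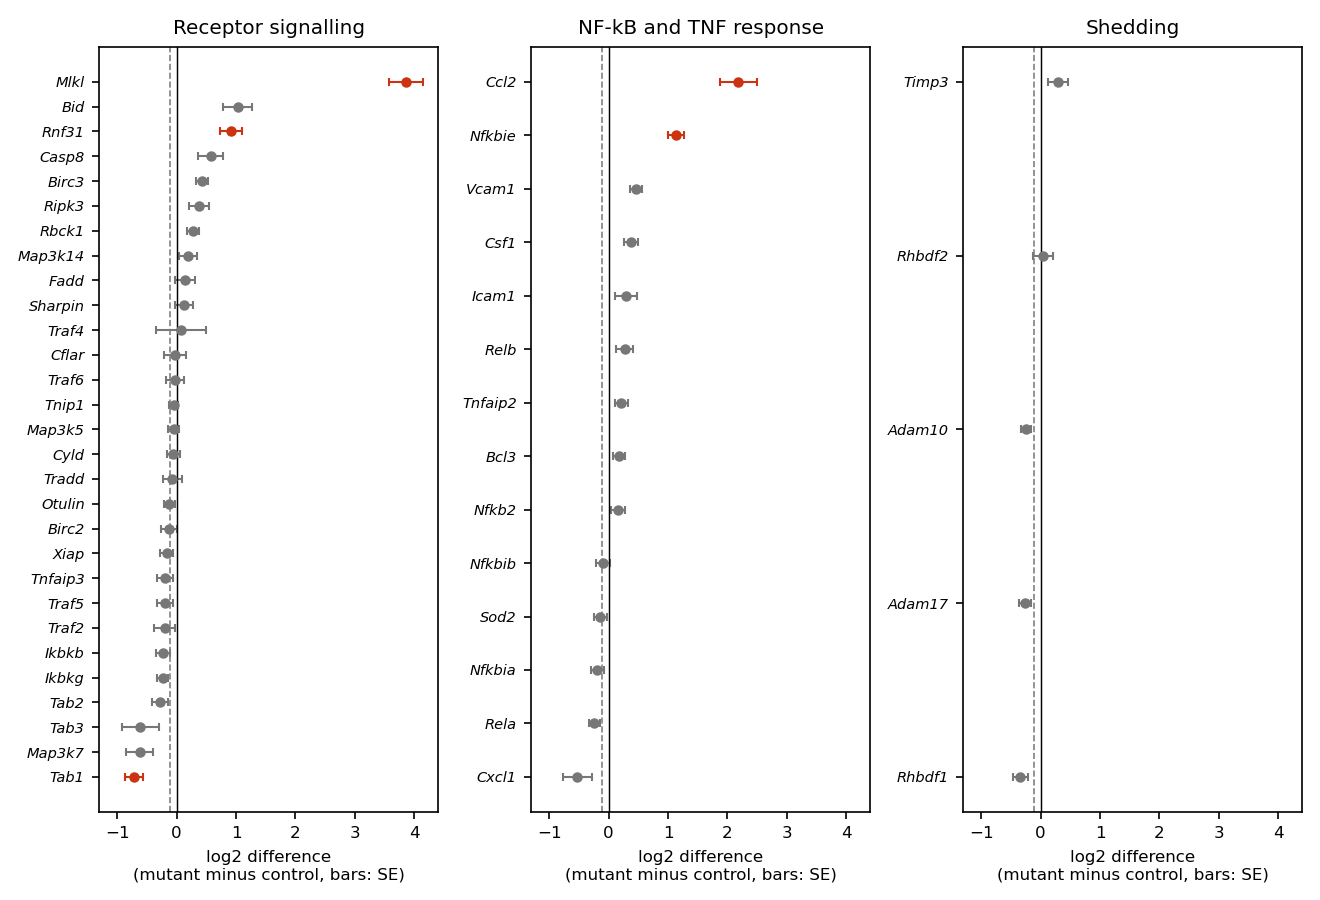
Difference in log2 value, mutant minus control (horizontal axis, bars: SE), of the tested receptor signalling, NF-kB and TNF response, and shedding genes; red marks genes with a limma adjusted p under 0.05, grey the rest, and the dashed line the median of all tested genes. Mlkl at 3.86 and Ccl2 at 2.19 lie far to the right of the other genes.

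Markers of other cells and states moved on the same arrays. Their part in the values of Tnfsf10, Tnfrsf25 and the signalling and response genes that passed was not tested. Over all tested genes, 2.66% passed as higher and 1.92% as lower. The marker lists were chosen with earlier results of these data known. In the interferon response list 12 of 13 tested genes rose, none fell, and the mean of the list ran from 10.92 to 11.60 in mutants and from 5.51 to 5.95 in controls. Of 14 microglia and macrophage genes tested, 11 rose and none fell, with list means up to 9.92 in mutants and from 7.12 to 8.06 in controls, and every mutant mean above every control mean. Both lists had their lowest mutant mean on mutant array 4 (10.92 for the interferon list), where Tnfsf10 was lowest too. Mlkl, Rnf31, Ccl2 and Nfkbie were also lowest among the mutants on array 4, and Tab1 on array 3. A low mutant array 4 was not particular to these genes and the 2 marker lists. The superfamily receptor (7.34), receptor signalling (7.54), NF-kB and TNF response (8.36) and endothelial lists (10.93) were lowest there among mutants too. The pericyte, fibroblast, neuronal and glial lists were lowest on mutant array 1. In such bulk RNA, more cells of a type and more transcript per cell cannot be told apart.

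Tnfrsf25 is best known from T cells and Tnfrsf14 from lymphocytes more widely. Of 11 lymphocyte and natural killer cell markers with a probe set, 10 were under the filter. The T cell genes Cd3d, Cd3e, Cd3g, Cd4 and Cd8a did not exceed 2.55 on any array. Gzma, a granule protease of natural killer and cytotoxic T cells, read 8.92 on mutant array 1, the highest of the mutants, 8.07 on mutant array 3, slightly less on mutant array 2 and 2.58 on mutant array 4, and 2.30, 2.22, 2.22 and 2.53 in the controls; it exceeded 4 on only 3 arrays and so was not tested. Mutant arrays 1 to 3 thus stood apart from mutant array 4 and the controls. Nkg7, another gene of such granules, reached 3.14 and 3.62 on mutant arrays 1 and 3 and at most 2.22 elsewhere, and the B cell gene Ms4a1 reached 5.44 on mutant array 1 and at most 4.39 elsewhere. The tested marker, Cd79b, ran from 4.89 to 6.32 in mutants and from 4.43 to 5.53 in controls (limma adjusted p = 0.399). The part of such cells in the values of the 8 genes was not tested.

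None of 4 neutrophil genes tested passed limma's test, and 0 had an unadjusted p under 0.05. Calls in these marker lists stand beside 2.66% higher and 1.92% lower over all tested genes. All 10 endothelial and all 10 pericyte and mural markers met the filter, Anpep barely (3.51 to 4.55 over all arrays), with Cldn5 at 14.39 ± 0.12 against 14.57 ± 0.09 and Rgs5 at 14.59 ± 0.19 against 14.66 ± 0.14 (SD, n = 4 each). In the endothelial list Erg, a transcription factor (-0.63, limma adjusted p = 0.00561), and Slco1a4, a transporter of the blood-brain barrier (-0.77, limma adjusted p = 0.0306), fell and none rose. In the pericyte and mural list Higd1b rose (0.85, limma adjusted p = 0.041) and Pdgfrb, the mutated gene itself, fell from 12.85 ± 0.05 to 11.84 ± 0.21 (SD, n = 4 each; limma adjusted p = 0.00132). Of 8 neuronal, 7 astrocyte and radial glial, 4 oligodendrocyte lineage, 5 choroid plexus and ependymal and 2 erythroid genes tested, none passed limma's test, 2 of the neuronal and 0 of the others had an unadjusted p under 0.05, and of 8 fibroblast and meningeal genes 1, Twist1, rose (0.46, limma adjusted p = 0.0193).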

How the data were processed

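RNA from 8 brains was hybridised to 1-colour Affymetrix arrays, from 6 ug of total RNA each per the labels' protocols. Per the submitters' processing notes, the authors made the deposited log2 values with GCRMA, of a version not given in the sources used here. This method corrects background by probe sequence and normalizes by quantiles, so dim probe sets collect at a floor and no floor value gives a fold. The log2 scale was inferred from the range of the values. Levels are not compared between probe sets, and arrays have no read depth: 4 per group limit the precision.

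Symbols came from the platform annotation, and 34958 probe sets had 1 symbol. A gene's brightest probe set, by its mean of all arrays, stood for it; genes above 4 on at least 4 arrays were kept. Mutants were compared with controls in limma 3.58.1 (lmFit, eBayes; R 4.3.3), with a two-sided test, no covariates and Benjamini-Hochberg adjustment over the 11446 genes. The fit was tested on simulated data. Single probe sets were fitted likewise over 19302 probe sets, from which the SE of the dimmer probe sets comes. Whether the brains of a group came from separate litters is not given, so p-values measure the spread between these arrays. No batch is named in the labels.

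The 8 genes and all lists were chosen with earlier results of these data known. Named are the 8 genes, from each superfamily and pathway list the genes that passed or, where none did, the brightest, and for the largest rise and fall the 3 genes with the highest Pearson r; other names were chosen after values were seen. Some listed genes without a single-symbol probe set were not analysed here. Alternatives were no filter, a filter at 6, centring each array, a second quantile normalization, a replicate block, averaging a gene's probe sets, Y-linked genes as a covariate, eBayes with trend and robust settings, and leaving out each array.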

Additional observations from a re-analysis of the deposited data

Results flagged for a closer look

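Within groups of 4 arrays, a single array stood apart from the other 3 by more than Dixon's critical ratio in 5 of the 21 cases with a spread of at least 0.05 over the probe sets of the 8 genes. Chance flags about 1 in 20 groups, but in 2 of the 5, both near the floor, the other 3 arrays held 1 equal value, so that this rate does not apply to them; cases from 1 gene are not independent. Tnfrsf21 read 7.55 on control array 1 with 1422740_at, against 5.44 on the next control, and 10.02 on that array with 1450731_s_at, against 9.17 on the next. Tnfrsf11b read 8.85 on mutant array 1 with 1449033_at, against 8.10 on the next mutant. The other such values lay near the floor: Tnfsf13b at 2.75 on mutant array 1 with 1445251_at, and Tnfrsf1b at 2.38 on mutant array 3 with 1448951_at.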

How the results depend on the processing

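Tnfsf10 kept its direction under all 16 alternatives, with differences from 1.06 to 1.23, and Tnfrsf25 with differences from -1.49 to -1.09. Tnfsf10 was among the genes that passed in 16 of 16 and Tnfrsf25 in 4 of 16. Both genes were chosen from this comparison on the same arrays, so these counts describe the processing and carry no test. The superfamily count of 2 was 1 with no filter, with centred arrays, with a second quantile normalization and with the replicate block, and 1 with any array left out. The count of 3 signalling genes was 1 with no filter and 5 with the filter at 6, and 1 to 5 with an array left out. Of all genes, 524 passed, 259 with the replicate block and 264 to 540 with an array left out. Of single probe sets, 576 passed, 292 with the block and 284 to 509 with an array left out. The all-gene split of 304 higher and 220 lower was 221 and 38 with the replicate block, 329 and 166 with a second quantile normalization, and with an array left out 189 to 302 higher and 65 (without control array 4) to 238 lower. With centred arrays it was 336 and 115, and the signalling split 3 higher and 0 lower, with Tab1 lost (limma adjusted p = 0.0851). Centring moved the differences of Tnfsf13b and Tnfrsf14, both under the filter, from 0.06 to 0.15 and from 0.0006 to 0.09, changes that stem from the shift of the arrays. The count of NF-kB and TNF response genes stayed within 1.5 times its main value under all 16. The cause of these changes was not tested. Arrays with the same replicate number did not deviate together: the correlations of their deviations were -0.08, -0.48, -0.20 and 0.30, 1 of 8 arrays correlated best with its own number, and so the number is not taken as a pairing.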
